A study of Arabidopsis thaliana with 6 samples.

Results

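JAZ proteins are the repressors at the core of jasmonate signalling, and the transcripts of JAZ1 to JAZ10 were followed here in Arabidopsis roots with and without overexpression of OBP4, a DOF transcription factor. The 10 members were taken by locus and all 10 were on the array, as 18 gene models among 37118, or 10 loci of 32627. Roots of a pER8::GFP line, called the control, and of a pER8::OBP4 line gave 3 one-colour arrays each, from plates cultured independently. Seedlings of both lines were 5 days old when they were moved to 10 µM estradiol for 8 h, under 16 h of light a day. pER8 is a vector in which an estradiol-activated factor, made throughout the plant, switches on the gene placed behind it, so the control roots carry the vector, GFP and the hormone too. No source used here says how many transgenic events stand behind each line, and differences between the lines from before induction cannot be told apart from effects of OBP4.

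In Arabidopsis, JAZ proteins bind MYC transcription factors and hold them inactive by recruiting the adaptor NINJA and the TOPLESS co-repressors. When the active hormone, a conjugate of jasmonate and isoleucine, is present, the F-box protein COI1 grips the JAZ protein through its Jas motif and marks it for destruction, which frees the MYC factors. Most JAZ genes are themselves switched on by jasmonate, so that fresh repressor closes the loop, and jasmonate is known in roots for slowing growth and for defence. The sequences of the JAZ proteins and promoters were not used here.

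OBP4 transcript stood at 14.37, 14.78 and 14.48 in the control arrays and at 15.74, 15.83 and 15.86 in the OBP4 arrays, on the log2 scale of all levels below. Values of single arrays are always listed in the order of replicates 1, 2 and 3. Every OBP4 array was thus above every control array. Array medians across loci ran from 11.60 to 11.65, and the image names place all 6 arrays on 1 slide, control arrays first and OBP4 arrays after them, so position and group cannot be told apart. Of 11 genes listed as root markers, 8 had a mean level above that of the median locus. Limma called 2 of the 11 lower, the aquaporin gene TIP2;3 (-0.52) and the root hair regulator gene RHD6 (-0.76), and 0 higher. At an unadjusted p under 0.05, and also with the trend and robust settings of limma, 5 were lower and 1 higher. Of all loci, 8.48% were called lower and 5.23% higher. The shares were 15.4% and 13.2% at an unadjusted p under 0.05, and 10.8% and 7.85% with the trend and robust settings. The summed level of the root markers was 149.3 to 150.7 in control and 147.6 to 148.2 in OBP4 arrays. Their median level went the other way, at 13.96, 14.01 and 14.02 in control and 14.26, 14.36 and 14.26 in OBP4 arrays. The 17 photosynthesis genes listed as shoot markers varied within both groups. Their median level was 12.25, 11.78 and 13.21 in the control arrays and 15.35, 11.05 and 13.50 in the OBP4 arrays, and their summed level 186.1 to 207.6 in control and 173.6 to 241.2 in OBP4 arrays. By limma, none of the 17 passed the test described next, 0 did at an unadjusted p under 0.05, and 0 did with the trend and robust settings of limma. Their median difference, OBP4 minus control, was still 0.89, and single genes ran from -0.80 to 2.35. With the spread within groups, the lack of calls does not show that the groups were alike.

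Among the JAZ genes 3 fell in OBP4 roots, JAZ4, JAZ6 and JAZ7, and 0 rose by limma with Benjamini-Hochberg adjusted p under 0.05 over all loci. At an unadjusted p under 0.05 the same test gave 3 lower members and 2 higher ones, JAZ5 and JAZ10, and with limma's trend and robust settings 3 were lower and 1 higher. Across all loci 8.48% were called lower and 5.23% higher, or 13.7% in either direction. The shares at an unadjusted p under 0.05 were 15.4% lower and 13.2% higher, and with the trend and robust settings 10.8% and 7.85%. The members' median difference, OBP4 minus control, was -0.22 against 0.02 over all loci, and the median size of a difference regardless of sign was 0.46 against 0.21. The median difference of the root markers lay close by, at -0.23, and its part in the JAZ result was not tested. The arrays of the groups did not overlap for 5 of the 10 members, with 3 below and 2 above control, where 36.9% of all loci did not overlap, 18.9% below and 18.0% above. Whole roots were measured, so fewer cells of a type and less RNA per cell cannot be told apart.

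**Figure D1:**
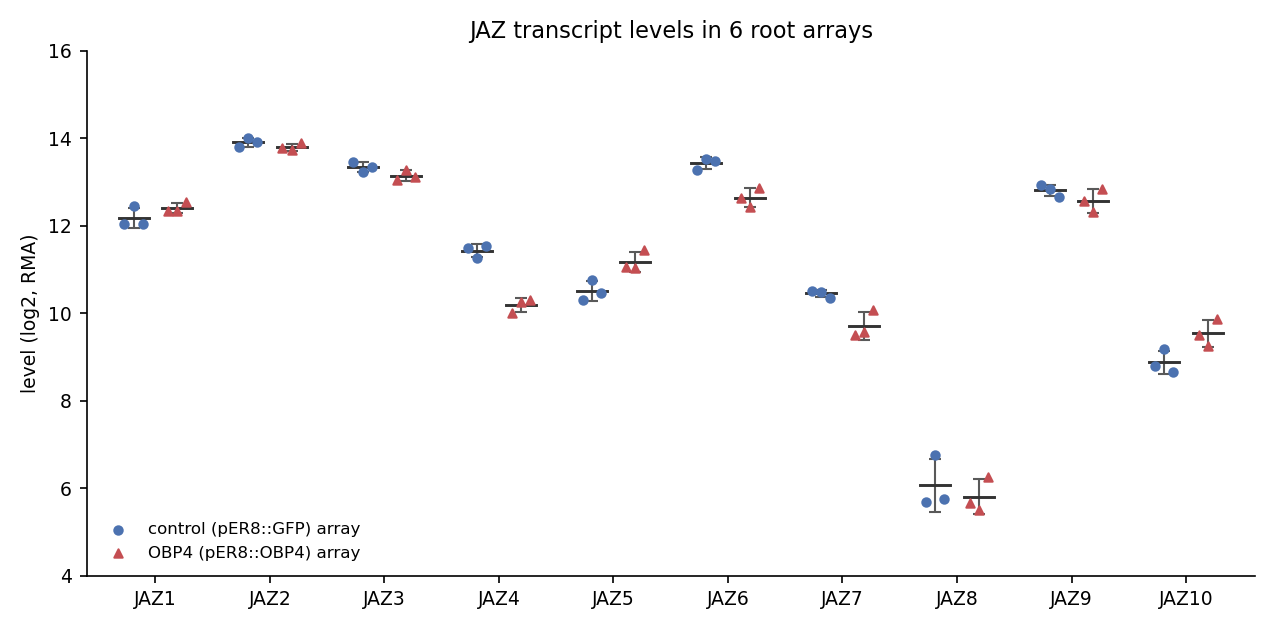
Level of each JAZ locus on the log2 scale (y axis) in the 3 control arrays (circles) and the 3 OBP4 arrays (triangles), with the group mean (line) and SD (bars). All 3 OBP4 points lie below all control points for JAZ4, JAZ6 and JAZ7 and above them for JAZ5 and JAZ10.

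JAZ4 showed the largest change of the 10. Its locus (AT1G48500; chromosome 1, 17931476 to 17934662, forward strand, as the array annotation places it; no source used here names its build) stood at 11.49, 11.26 and 11.54 in the control arrays and at 9.99, 10.25 and 10.31 in the OBP4 arrays. The highest OBP4 array lay well under the lowest control array. The group means were 11.43 ± 0.15 (SD, n = 3) and 10.18 ± 0.17 (SD, n = 3). This is a difference of -1.24 ± 0.12 (SE) on the log2 scale, or 2.37-fold lower, with limma's adjusted p = 0.00311 and a 95% interval from -1.55 to -0.94. JAZ4 is a relative of JAZ3 and JAZ9 and is known as a repressor that also binds the cold-response factor ICE1. The call was kept in each of the 6 fits without 1 array, with adjusted p between 0.00791 and 0.02. With the shoot marker mean of each array as a covariate the difference was -1.21, with limma's adjusted p = 0.0126.

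Each of the 3 gene models of JAZ4, its annotated transcript forms, was lower in every OBP4 array than in any control array. Model 1 went from 13.55 ± 0.16 to 12.11 ± 0.17 and model 2 from 13.69 ± 0.08 to 12.23 ± 0.17 (SD, n = 3 each), differences of -1.44 and -1.46 with limma's adjusted p of 0.00229 and 0.00129 over all gene models. Model 3, a shorter model that starts at 17932824, was dim, at 7.04 ± 0.25 in control and 6.21 ± 0.38 in OBP4 roots (SD, n = 3 each). Its difference of -0.82 did not pass (limma's adjusted p = 0.08), and since it enters the locus mean the brighter models give a larger fall than the locus does. Which probes the models of a locus share was not analysed here.

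JAZ6 fell as well. JAZ6 (AT1G72450; chromosome 1, 27274065 to 27276317, reverse strand) is a close relative of JAZ5. Its levels were 13.27, 13.53 and 13.49 in the control arrays and 12.64, 12.42 and 12.86 in the OBP4 arrays. No OBP4 array reached the lowest control array. The means of 13.43 ± 0.14 and 12.64 ± 0.22 (SD, n = 3 each) differed by -0.79 ± 0.14 (SE), or 1.73-fold lower, with limma's adjusted p = 0.0215. The call was lost without control replicate 2 (adjusted p = 0.0704), control replicate 3 (0.0809), OBP4 replicate 1 (0.0654) or OBP4 replicate 2 (0.0531) in limma, and kept without either of the other arrays (0.0448 and 0.0259). In those 6 fits the size of the fall ran from 0.68 to 0.90.

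JAZ7 was at the edge of the threshold. JAZ7 (AT2G34600; chromosome 2, 14573080 to 14573856, forward strand) is a short member linked in Arabidopsis to leaf senescence in the dark. It read 10.51, 10.49 and 10.35 in the control arrays and 9.49, 9.57 and 10.07 in the OBP4 arrays. OBP4 replicate 3 was the closest to the control arrays and still below them all. The means were 10.45 ± 0.09 and 9.71 ± 0.32 (SD, n = 3 each), a difference of -0.74 ± 0.17 (SE), or 1.67-fold lower, with limma's adjusted p = 0.0461. Without OBP4 replicate 3 the difference was -0.92 (limma's adjusted p = 0.0109). The call was lost without any other single array, with limma's adjusted p of 0.135, 0.124 and 0.106 without control replicates 1 to 3 and of 0.106 and 0.136 without OBP4 replicates 1 and 2. Quantile normalization (limma's adjusted p = 0.0604), centring of each array on its median (0.0589), array weights (0.0644) and the shoot marker covariate (0.0931) also ended the call. The difference itself ran from -0.79 to -0.65 in these settings, and from -0.92 to -0.63 without single arrays.

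JAZ5 and JAZ10 had higher levels in all 3 OBP4 arrays and did not pass the test. JAZ5 (AT1G17380; chromosome 1, 5955488 to 5957212, reverse strand) measured 10.31, 10.76 and 10.45 in the control arrays and 11.05, 11.03 and 11.44 in the OBP4 arrays. Its difference was 0.67 ± 0.17 (SE) with limma's adjusted p = 0.059, just outside the threshold, as JAZ7 was just inside it. It passed with the dimmest 25% of loci left out (limma's adjusted p = 0.0391), with the trend and robust settings (0.0258) and with array weights (0.0353). JAZ10 (AT5G13220; chromosome 5, 4218888 to 4220883, forward strand), whose transcript is known to be spliced into forms that resist COI1-dependent breakdown, measured 8.80, 9.17 and 8.65 in the control arrays. Its OBP4 levels were 9.51, 9.25 and 9.87 in replicates 1 to 3, the second of them only slightly above control replicate 2. The difference of 0.67 ± 0.21 (SE) had limma's adjusted p = 0.107.

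The 4 gene models of JAZ10 differed in brightness. Models 1 and 3 stood near the middle, with means at the 49.3 and 51.5 percentiles of all gene models. Models 2 and 4 were dim, at the 17.9 and 8.82 percentiles, which pulls the locus mean down. Model 1 went from 11.45 ± 0.24 to 12.06 ± 0.12 (SD, n = 3 each) and rose by 0.62 ± 0.14 (SE), with limma's adjusted p = 0.0465 over all gene models, the one JAZ model called higher. Model 3 differed by 0.51 (adjusted p = 0.08), model 2 by 1.25 (0.0931) and model 4 by 0.29 (0.504), all by limma. Over the 18 JAZ models 4 were called lower, 1 higher, and 13 did not pass. Of all 37118 models 8.21% were called lower and 5.20% higher.

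**Figure D2:**
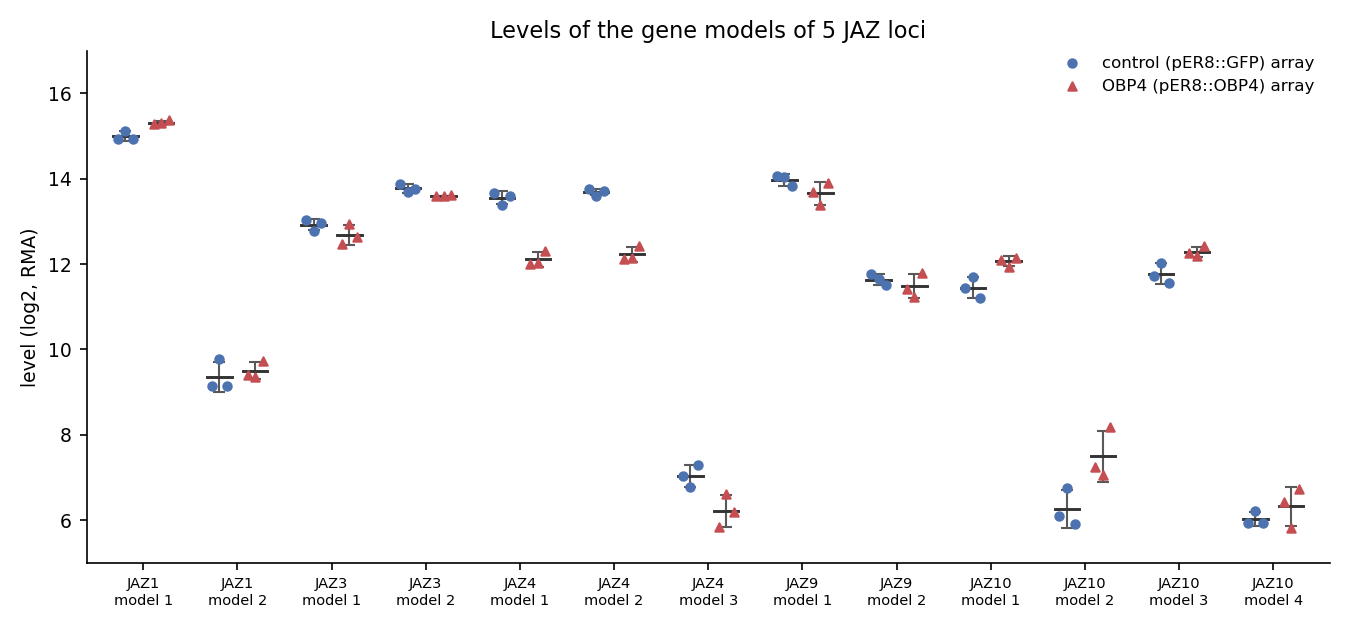
Level of each gene model (log2, y axis) for the 5 JAZ loci that have several, in control arrays (circles) and OBP4 arrays (triangles), with group mean (line) and SD (bars). Models 1 and 2 of JAZ4 differ by -1.44 and -1.46 in OBP4 roots, and models 2 and 4 of JAZ10 are dim in both groups.

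The other 5 members did not pass, and their groups overlapped. JAZ1 (AT1G19180), the repressor first used to show the contact with COI1, was measured at 12.04, 12.45 and 12.04 in the control arrays and at 12.35, 12.33 and 12.55 in the OBP4 arrays. Control replicate 2 lay among the OBP4 arrays. The difference was 0.23, with a 95% interval from -0.12 to 0.59. Model 1 of JAZ1, at 15.00 ± 0.11 in control and 15.32 ± 0.05 in OBP4 roots (SD, n = 3 each), lay higher in every OBP4 array and did not pass (0.32, limma's adjusted p = 0.0585). Model 2, at 9.35 ± 0.36 and 9.50 ± 0.20 (SD, n = 3 each), overlapped.

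JAZ2 (AT1G74950), the nearest relative of JAZ1, varied little. It read 13.80, 14.00 and 13.92 in the control arrays and 13.77, 13.73 and 13.88 in the OBP4 arrays, a difference of -0.11 (95% interval -0.32 to 0.10). JAZ3 (AT3G17860) read 13.46, 13.23 and 13.35 against 13.04, 13.27 and 13.12 in the same order, with OBP4 replicate 2 inside the control range and a difference of -0.20 (95% interval -0.45 to 0.04). Its model 2 was lower in every OBP4 array, at 13.60 in 2 of them and 13.61 in the third, and did not pass (-0.17, limma's adjusted p = 0.197).

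JAZ9 (AT1G70700), the third member of the group of JAZ3 and JAZ4, read 12.92, 12.84 and 12.66 in the control arrays and 12.56, 12.30 and 12.84 in the OBP4 arrays. OBP4 replicate 3 lay inside the control range, and the difference was -0.24 (95% interval -0.64 to 0.15). JAZ8 (AT1G30135), whose Jas motif lacks the usual degron and which therefore withstands breakdown, was dim, with a mean at the 5.82 percentile of all loci. Its levels of 5.68, 6.77 and 5.74 in control and 5.67, 5.50 and 6.26 in the OBP4 arrays overlapped, and the 95% interval of the difference, -1.16 to 0.65, covers changes of either direction. Its sign turned without control replicate 2 (from -0.26 to 0.10).

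**Figure D3:**
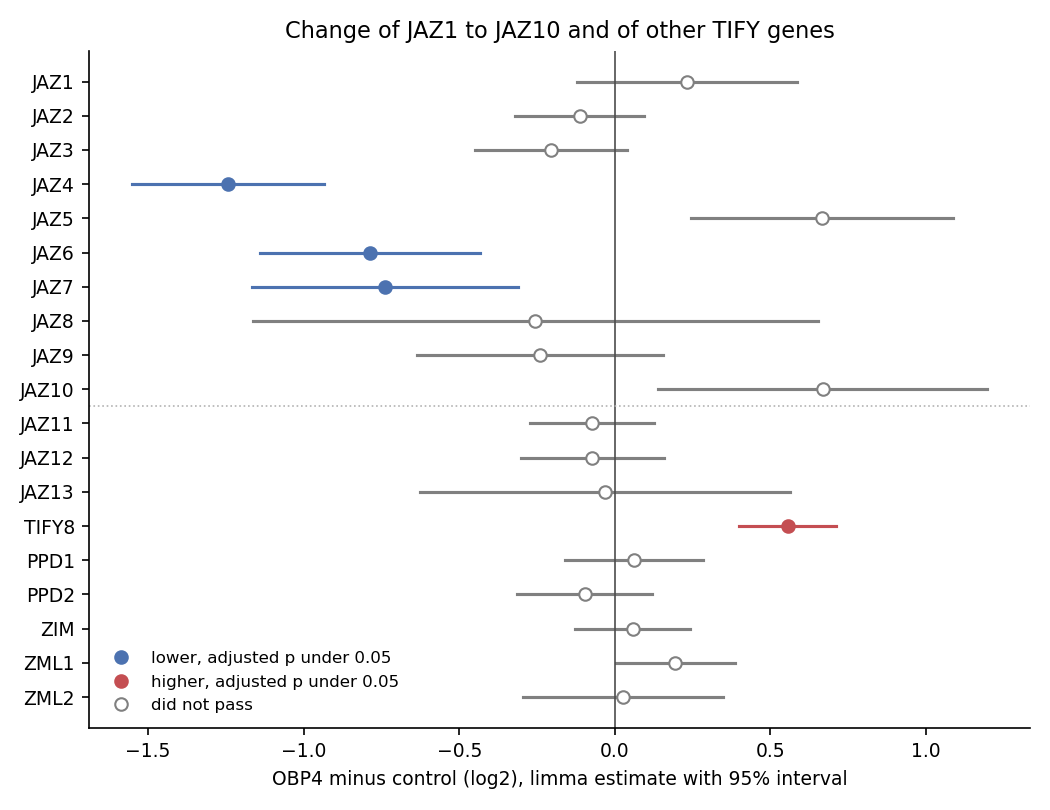
OBP4 minus control on the log2 scale (x axis) with its 95% interval from limma for JAZ1 to JAZ10 and, under the dotted line, 9 other genes of the TIFY family. JAZ4 (-1.24), JAZ6 (-0.79), JAZ7 (-0.74) and TIFY8 (0.56) passed the test. The intervals of JAZ5, JAZ10 and ZML1 lie above 0 without an adjusted p under 0.05.

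Close relatives were compared within each array, as 4 pairs. With 3 arrays against 3 the exact permutation test cannot go below p = 0.1, so no pair could pass at 0.05 and the values are a description. JAZ5 minus JAZ6 was -2.95, -2.77 and -3.03 in the control arrays and -1.58, -1.39 and -1.43 in the OBP4 arrays. This difference was 1.45 higher in OBP4 roots, with no overlap between the groups (exact two-sided permutation p = 0.1, the smallest possible, and 0.2 adjusted over the 4 pairs). Since JAZ5 lay above and JAZ6 below control in every OBP4 array, this separation had to follow and is no further evidence. JAZ1 minus JAZ2 had means of -1.73 ± 0.16 in control and -1.39 ± 0.05 in OBP4 roots (SD, n = 3 each), also without overlap (exact p = 0.1, adjusted 0.2). JAZ7 minus JAZ8, taken against the dim JAZ8, differed by -0.48 (exact p = 0.4, adjusted 0.533) and JAZ3 minus JAZ9 by 0.04 (exact p = 0.9, adjusted 0.9), both with overlapping groups. Only changes of these differences are read, since levels of different probes cannot be set against each other.

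Among 9 other TIFY genes, 1 rose and 8 did not pass, where 5.23% of all loci were called higher and 8.48% lower. TIFY8 (AT4G32570), which carries the TIFY motif but no Jas motif, read 12.98, 12.91 and 12.95 in the control arrays and 13.50, 13.46 and 13.55 in the OBP4 arrays. The difference was 0.56 ± 0.06 (SE) with limma's adjusted p = 0.00465, kept in each of the 6 fits without 1 array. JAZ11 (-0.07), JAZ12 (-0.07) and the short, divergent JAZ13 (-0.03) had 95% intervals of -0.27 to 0.13, -0.30 to 0.16 and -0.63 to 0.56. The leaf growth regulators PPD1 (0.06) and PPD2 (-0.10), and ZIM (0.06), ZML1 (0.20) and ZML2 (0.03), which carry a GATA zinc finger, did not pass either.

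No gene of the receptor and co-repressor list passed by limma, 0 of 13, also 0 at an unadjusted p under 0.05 and 0 with the trend and robust settings. Limma called 13.7% of all loci in either direction. The shares at an unadjusted p under 0.05 were 15.4% lower and 13.2% higher, and with the trend and robust settings 10.8% and 7.85%. With 13 genes, a count of 0 cannot be told from these shares. Their differences ran from -0.14 to 0.07. COI1 was -0.11 (95% interval -0.26 to 0.04) and NINJA -0.00 (-0.16 to 0.15). Their probes were bright for the most part, NINJA standing at 15.44 in control roots, and whether the scale still follows changes there was not tested.

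Of 26 genes for transcription factors that bind JAZ proteins in Arabidopsis, 1 rose, 3 fell and 22 did not pass. Their median difference was -0.02, and of all loci 5.23% were called higher and 8.48% lower. ICE1, a bHLH factor of the cold response, rose from 13.20 ± 0.02 to 14.31 ± 0.07 (SD, n = 3 each) by 1.11 ± 0.06 (SE), with limma's adjusted p = 0.00071. RHD6, a bHLH factor of root hair initiation, fell from 12.87 ± 0.08 to 12.11 ± 0.09 by 0.76 ± 0.08 (SE; adjusted p = 0.00363 by limma). WRKY57 fell by 0.92 (adjusted p = 0.0179) and TOE1, an AP2-type flowering repressor, by 0.39 (adjusted p = 0.043), both by limma. The MYC genes, whose products are the main targets of JAZ repression, did not pass in the main analysis. MYC2 stood at 0.02, MYC3 at -0.02 and MYC4 at -0.35 (limma's adjusted p = 0.0927), MYC4 with every OBP4 array under every control array. MYC4 passed with the trend and robust settings (limma's adjusted p = 0.0263) and without the dimmest 50% of loci (0.0302). ICE1 and RHD6 passed in each of the 6 fits without 1 array, WRKY57 in 3 and TOE1 in 0.

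Jasmonate synthesis genes showed 1 call among 17, where 13.7% of all loci were called in either direction. LOX4, a lipoxygenase at the first step of the pathway, read 9.97, 10.90 and 9.98 in the control arrays and 13.72, 13.40 and 13.78 in the OBP4 arrays. It was 10.2-fold higher in OBP4 roots (3.35 ± 0.29, SE; limma's adjusted p = 0.00199, past the threshold in each of the 6 fits without 1 array). JAR1, which joins jasmonate to isoleucine, was at 0.02 (95% interval -0.12 to 0.16). LOX2, a lipoxygenase of green tissue, read 9.59, 6.88 and 10.93 in control and 14.26, 6.88 and 12.46 in the OBP4 arrays. LOX2 was highest in the array with the highest shoot marker level and lowest in the 2 arrays with the lowest, and the part of shoot tissue in this was not tested. With the shoot marker mean as a covariate the LOX4 difference was 3.33 (limma's adjusted p = 0.00948).

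Of 10 genes that break down or modify jasmonates, 1 rose and 2 fell, against 5.23% and 8.48% of all loci. The jasmonate oxidase gene JOX3 rose from 8.91 ± 0.23 to 10.52 ± 0.42 (SD, n = 3 each), by 1.61 (limma's adjusted p = 0.0124). Its relatives JOX1 and JOX2 fell by 0.90 and 0.41 (limma's adjusted p of 0.0274 and 0.0222), JOX2 from a bright 15.32. Without single arrays JOX3 passed in 5 of 6 fits, JOX2 in 1 and JOX1 in 0.

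Among 20 genes known to respond to jasmonate, 1 rose, 2 fell and 17 did not pass. By limma 5 were higher and 4 lower at an unadjusted p under 0.05, against 13.2% and 15.4% of all loci. With the trend and robust settings 4 were higher and 2 lower, against 7.85% and 10.8%. The groups did not overlap for 11 of the 20, or 55.0%, with 7 above and 4 below control. Their median size of a difference was 0.45, against 0.46 for the JAZ members and 0.21 over all loci. ORA59, an ERF factor that activates defensin genes, fell from 8.75 ± 0.23 to 7.12 ± 0.11 (SD, n = 3 each), by 1.63 ± 0.14 (SE; limma's adjusted p = 0.00182, kept in each of the 6 fits without 1 array). PR4, a hevein-like defence gene, fell by 0.86 (limma's adjusted p = 0.019; 3 of those 6 fits), and NAC019 rose by 2.21 (0.0419; 2 of 6) from a dim 6.30. VSP2 (0.19, 95% interval -0.05 to 0.42) and the defensin gene PDF1.2 (0.57, -0.03 to 1.17) did not pass. Over the 95 genes of these 6 lists 5 rose and 7 fell, against 5.23% and 8.48% of all loci. The 95 had a median difference of 0.06. The groups did not overlap for 30 of them, or 31.6%, against 36.9% of all loci.

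**Figure D4:**
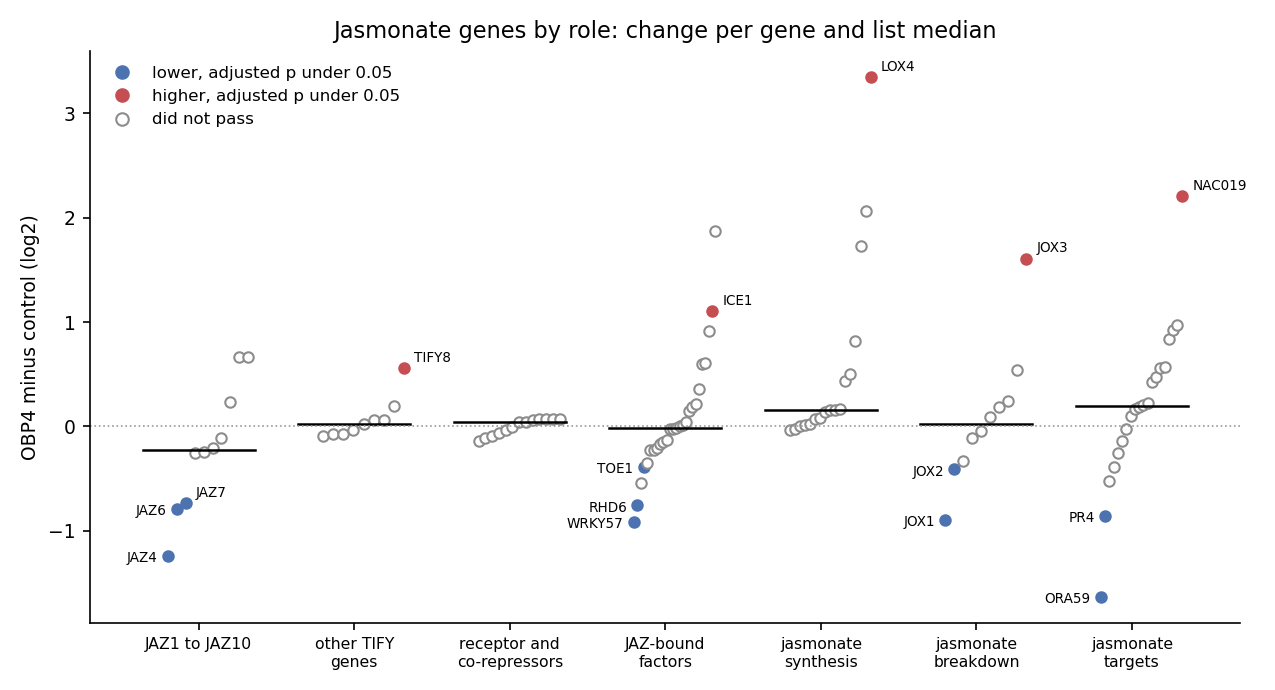
OBP4 minus control on the log2 scale (y axis) for each gene of 7 jasmonate lists, ordered within a list, with the list median as a line and genes past the adjusted threshold filled and named. The JAZ median (-0.22) is the lowest of the 7 list medians, LOX4 (3.35) is the highest gene plotted and ORA59 (-1.63) the lowest.

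Genes beside the 3 lower JAZ loci were not called. Within 10 kb of JAZ4, JAZ6 and JAZ7 lay 4, 5 and 8 array loci. Of these 17, limma called 0, 2 had an unadjusted p under 0.05 (EDA25 at 0.21 and EXO70D1 at -0.30, both beside JAZ6), and 1 passed with the trend and robust settings. Across all loci 13.7% were called in either direction. At an unadjusted p under 0.05, 15.4% of all loci were lower and 13.2% higher, and with the trend and robust settings 10.8% and 7.85%. So few neighbours cannot be told from these shares. Jasmonate genes of other roles lay within 50 kb of 3 members. LOX4 lay 32.2 kb from JAZ6 and differed by 3.35 while JAZ6 fell by 0.79. LOX3 lay 20.2 kb from JAZ5 (1.73 and 0.67, neither passing) and ORA47 3.53 kb from JAZ2 (0.92 and -0.11, neither passing).

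The transcripts most like each lower JAZ gene were found by the root-mean-square difference of centred log2 levels over the 6 arrays, among loci with a symbol. The measure takes in the group difference by which these JAZ genes were called, so loci with a like difference come nearest. Shared regulation was not tested. Nearest to JAZ4 were ABCB3 (0.04), an ABC transporter gene, TT7 (0.07), the flavonoid 3'-hydroxylase gene, and SKOR (0.08), a potassium channel gene of the root stele. Their differences were -1.19, -1.25 and -1.32, and JAZ4 itself varied by 0.63 about its mean on this measure. DAR5 (0.05), ENODL11 (0.05) and FAF4 (0.06) came nearest to JAZ6. For JAZ7 they were JAL31 (0.07), a jacalin-like lectin gene, RTFL16 (0.08) and RALFL18 (0.09). RALFL18 was not itself called (limma's adjusted p = 0.0838).

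**Figure D5:**
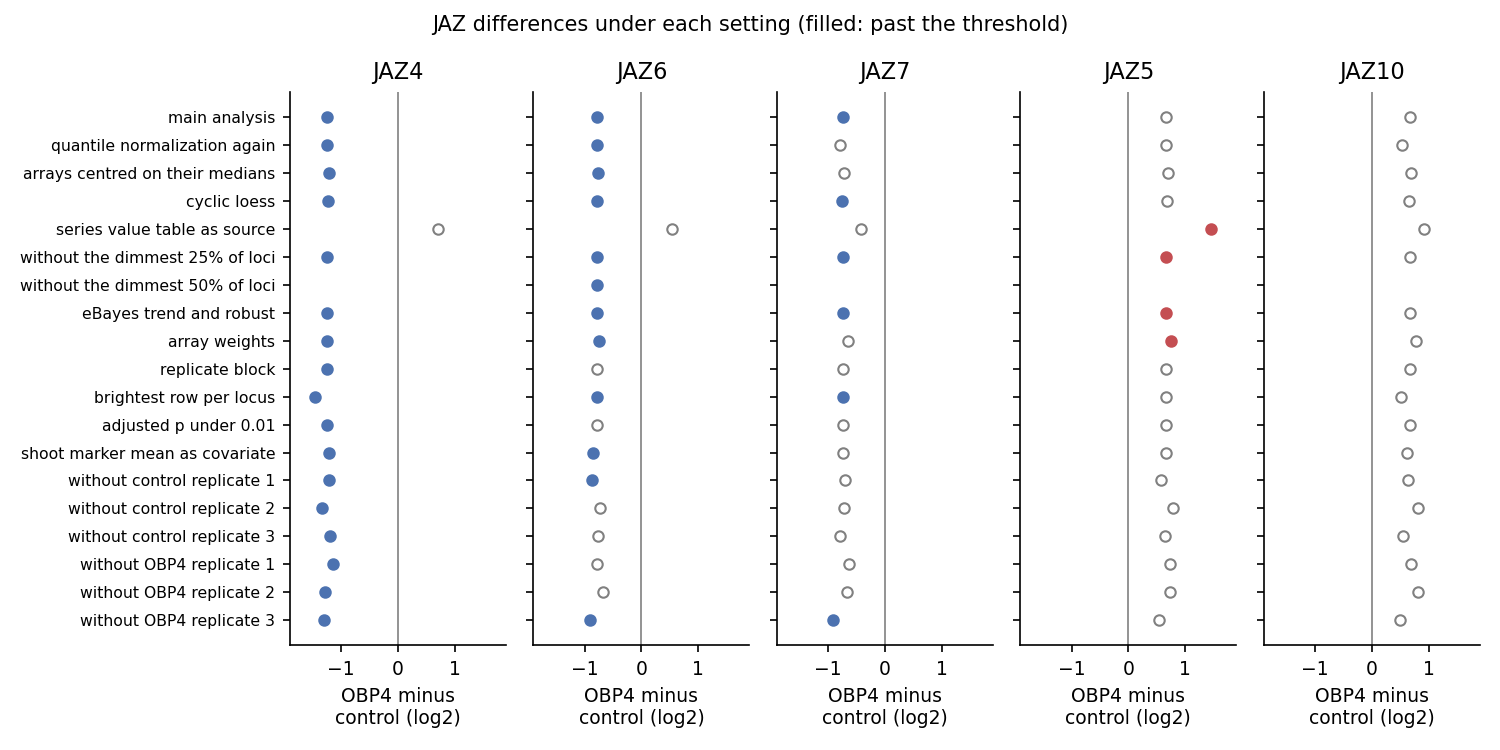
OBP4 minus control on the log2 scale (x axis) for 5 JAZ genes under the main analysis and each other setting (y axis), with filled points past the threshold. JAZ4 stays filled and below 0 in all settings that measured it except the series value table (0.71), whereas JAZ6 and JAZ7 lose the threshold in several and JAZ5 gains it in 4.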

How the data were processed

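For every array the authors deposited log2 levels by gene model, the JAZ models resting on 3 or 4 probes each. RMA (background correction, normalization between arrays and a summary of probes) is named by the deposited tables' titles; no source used here gives software or settings. A second deposited table of log2 values has no stated normalization, its deviations from each locus mean correlated with those of its own array at -0.08 to 0.21, and it served only as an alternative. Models of a locus were averaged. OBP4 and control arrays were compared over all loci in R 4.3.3 by a two-sided limma 3.58.1 fit (lmFit, then eBayes), with p-values adjusted by Benjamini-Hochberg and called under 0.05. The gene model fit ran likewise over all models. Paralogue pairs were tested by exact permutation (scipy 1.17.1).

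JAZ members and lists were chosen with earlier results of these data known. Of 133 list entries, 126 carried the same symbol in the NCBI TAIR10.1 table, and for 7 absent symbols the locus was used. Named genes are all JAZ and TIFY genes, up to 4 called genes per other list, 8 core genes whatever their p, OBP4, and the neighbours and 3 nearest transcripts of called members. LOX2, LOX3, ORA47 and TIP2;3 were named after their values were seen. Arrays have no depth, and 3 per group limit the precision.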

Additional observations from a re-analysis of the deposited data

Results flagged for a closer look

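The other table the authors deposited, with columns named for these samples, enters the text above only as 1 of the other settings. Its deviations from each locus mean correlated with those of its own arrays at only -0.08 to 0.21. By limma 2 JAZ genes passed in this second source, where 1034 loci were called higher and 778 lower. Under its labels JAZ5 was higher in OBP4 roots by 1.46 (11.15 ± 0.27 in control and 12.61 ± 0.21 in OBP4, SD, n = 3 each; limma's adjusted p = 0.0111) and JAZ9 by 0.66 (11.79 ± 0.18 and 12.45 ± 0.12; limma's adjusted p = 0.0394). In the arrays JAZ5 differed by 0.67 and JAZ9 by -0.24, and neither passed.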

How the results depend on the processing

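Leaving out single arrays gave 0 JAZ members higher in each fit and 1 to 3 lower, a JAZ median of -0.29 to -0.11, 3 to 7 pathway genes higher and 2 to 4 lower, and 892 to 1309 loci higher and 1571 to 2048 lower. JAZ members higher numbered 1 without the dimmest 25% of loci, with trend and robust settings and with array weights. Lower members numbered 1 without the dimmest 50% of loci, where JAZ4 and JAZ7 were not tested, and 1 at an adjusted p under 0.01. Pathway genes higher were 8 without the dimmest 25% and with trend and robust settings (2561 loci), and at 0.01 3 were higher and 2 lower (669 and 1295 loci). Replicate numbers did not pair the arrays: same-numbered deviations correlated at -0.20, 0.09 and -0.17, and the highest correlation, 0.36, joined control replicate 3 and OBP4 replicate 1. With the replicate block 1 JAZ member was lower (JAZ4), 3 pathway genes higher and 1 lower, and 588 loci higher and 1114 lower. The second deposited table gave 2 JAZ members higher and 0 lower (limma; 778 loci lower, 1034 higher), a JAZ median of 0.50 and 0 pathway genes lower. It reversed JAZ4 (0.71), JAZ6 (0.54), JAZ9 (0.66), ICE1 (-0.59), JOX2 (0.05), LOX4 (-0.013), ORA59 (1.13), PR4 (0.36), RHD6 (0.11), TIFY8 (-0.26), TOE1 (0.26) and WRKY57 (1.36). The sign also turned for JAZ2 (0.05), JAZ8 (0.46), JAR1 (-0.06) and MYC2 (-0.22), which passed in neither source. The cause was not tested. The shoot marker covariate was chosen after seeing the data.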
